A study of Rattus norvegicus with 6 samples.

Results

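The mu class of glutathione transferases was measured by 7 probe sets in rat liver, out of 31042 probe sets for genes on the array, and these stand for 7 of 14217 named genes. They were chosen as every probe set whose platform annotation gives a symbol starting with Gstm, and each carried 1 symbol: Gstm1, Gstm2, Gstm3, Gstm4, Gstm5, Gstm6l and Gstm7. Liver RNA of 6 male BrlHan:WIST@Jcl(GALAS) rats was hybridised to Affymetrix rat expression arrays, 1 array per animal. The momfluorothrin group (n = 3) was fed epsilon-momfluorothrin, an insecticide of the pyrethroid type, in a powdered diet for 2 weeks, and the control group (n = 3) ate the diet without it for the same time. All animals arrived at 4 weeks of age, spent 1 week in quarantine and were 7 weeks old at sampling. The dietary dose is not settled, because titles and protocol state 3000 ppm while the remaining labels state 5000 ppm.

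Glutathione transferases are dimeric enzymes that join the tripeptide glutathione to electrophiles such as epoxides, aldehydes and aryl halides, which makes them more soluble and less reactive. The conjugates leave the hepatocyte through efflux pumps and are trimmed to mercapturic acids for excretion. Mu-class subunits are abundant in the cytosol of rat hepatocytes, and the class is known to be inducible there by phenobarbital-like compounds that act through the nuclear receptor CAR and by electrophiles that act through the transcription factor NRF2. The comparison asked which of the mu-class transcripts differed in level between livers of the momfluorothrin and control groups.

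RefSeq lists 9 Gstm genes side by side on rat chromosome 2, in the order Gstm5, Gstm6l, Gstm7, Gstm6, Gstm3l1, Gstm3, Gstm2, Gstm1 and Gstm4. Gstm6 and Gstm3l1 had no probe set under their symbols and were not analysed here. The older name Gstm3 is given by RefSeq as a synonym of both Gstm5 and Gstm7, and Gstm4 as a synonym of the present Gstm3, so the members were identified by gene ID and not by older names. The genes are close paralogs, and probe sequences were not used here, so how far a signal holds transcripts of a neighbouring gene was not tested.

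The 250 bases before the start of the 5 tested members are shown from RefSeq (GRCr8), 5′ to 3′ on the strand of the gene. Capitals mark matches on either strand to TGACNNNGC (the core of the antioxidant response element, which NRF2 binds), AGGTCA (bound by many nuclear receptors), TATAAA (a core promoter element close to many start sites) and CCAAT (a proximal promoter element that the factor NF-Y binds).
Gstm1 (chr2:198343384-198343633, minus strand): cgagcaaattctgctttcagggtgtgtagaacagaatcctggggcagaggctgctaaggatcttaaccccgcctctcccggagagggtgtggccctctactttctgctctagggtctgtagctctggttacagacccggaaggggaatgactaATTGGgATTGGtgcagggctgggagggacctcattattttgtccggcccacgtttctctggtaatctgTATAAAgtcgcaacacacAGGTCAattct
Gstm2 (chr2:198316918-198317167, minus strand): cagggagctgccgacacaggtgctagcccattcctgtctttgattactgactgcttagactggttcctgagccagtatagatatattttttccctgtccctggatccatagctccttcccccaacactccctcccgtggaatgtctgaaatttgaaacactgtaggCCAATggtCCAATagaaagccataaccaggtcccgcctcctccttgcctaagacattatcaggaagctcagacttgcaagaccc
Gstm4 (chr2:198373384-198373633, minus strand): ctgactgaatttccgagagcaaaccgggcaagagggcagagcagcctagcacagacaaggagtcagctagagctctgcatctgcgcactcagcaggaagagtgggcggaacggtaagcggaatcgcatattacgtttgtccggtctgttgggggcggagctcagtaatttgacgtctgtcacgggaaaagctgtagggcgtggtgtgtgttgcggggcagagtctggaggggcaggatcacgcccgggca
Gstm7 (chr2:198260320-198260569, minus strand): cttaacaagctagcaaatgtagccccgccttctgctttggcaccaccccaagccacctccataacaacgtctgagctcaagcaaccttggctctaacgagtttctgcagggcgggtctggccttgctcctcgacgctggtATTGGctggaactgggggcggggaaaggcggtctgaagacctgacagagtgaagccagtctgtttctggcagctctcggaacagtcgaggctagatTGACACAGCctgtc
Gstm5 (chr2:198219519-198219768, plus strand): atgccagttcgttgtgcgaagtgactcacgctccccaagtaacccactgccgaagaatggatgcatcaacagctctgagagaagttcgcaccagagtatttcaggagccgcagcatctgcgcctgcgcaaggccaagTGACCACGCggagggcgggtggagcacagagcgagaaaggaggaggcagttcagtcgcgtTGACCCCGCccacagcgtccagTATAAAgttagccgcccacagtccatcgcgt

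The Gstm1 window held TATAAA from 29 to 24 bases before the start, AGGTCA from 11 to 6 bases before it, and CCAAT on the opposite strand at 2 places. The window of Gstm2 held CCAAT at 2 places and none of the other 3 motifs, and that of Gstm4 held none of the 4. Gstm5 also held TATAAA, from 31 to 26 bases before the start, and Gstm7 held CCAAT on the opposite strand at 1 place. TGACNNNGC lay in the windows of Gstm5, at 2 places, and of Gstm7, at 1 place. It lay in none of the windows of Gstm1, Gstm2 and Gstm4. Of 33465 rat promoter windows of the same length, TGACNNNGC was in 10.1%, AGGTCA in 14.1%, TATAAA in 12.9% and CCAAT in 34% on either strand. A direct repeat of AGNTCA with 4 bases between the copies, of the kind that CAR binds, was in 0.0538% of all windows and in none of the 6 Gstm windows that RefSeq gave, Gstm3 included. GGGCGG (a GC box) was in 30.5% of all windows and in those of Gstm5, Gstm7 and Gstm4. In Gstm5 a GC box on the opposite strand overlapped the second TGACNNNGC match. The 5 windows shown had a GC content of 50.0% (Gstm2), 52.4% (Gstm1), 56.8% (Gstm7), 58.4% (Gstm4) and 58.8% (Gstm5), against a median of 51.2% over all windows. In global alignments of the 6 windows, pairs had between 45.5% (Gstm3 and Gstm4) and 55.4% (Gstm3 and Gstm1) identical columns. Other RefSeq models extend further upstream than the start used here, by 2624 bases for Gstm1, 104 for Gstm4, 75 for Gstm3, 46 for Gstm7 and 45 for Gstm2, but 0 for Gstm5. The windows of these 5 genes thus hold the start of 1 of several transcripts, and presence or absence of a motif holds for that start alone. A match is a description of these letters only.

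The deposited values were linear signals made with MAS5, an Affymetrix method that combines the probes of a set into 1 signal per array. Signals of different probe sets are not comparable as amounts of RNA, so members are compared by their differences between groups. Array medians were 25.9, 26.5 and 23.1 in the momfluorothrin group and 27.0, 28.5 and 29.4 in the control group, so the groups did not overlap in that measure. A probe set had to be brighter than the median of its array on 3 or more arrays to be tested. The Gapdh controls for the 2 ends of the transcript, whose ratio is a sign of RNA quality, gave a ratio of the 3′ over the 5′ end that ranged from 1.23 to 1.28 in both groups. Hepatocyte markers were bright, with summed signals of 55716 to 62758 in momfluorothrin livers and 62456 to 69999 in control livers over the 9 markers tested.

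Gstm1, a major mu-class subunit of rat liver (probe set 1386985_at), rose in momfluorothrin livers. Its signals were 8200.1, 7431 and 7474 in momfluorothrin replicates 1 to 3, against 4965, 4867 and 4524 in control replicates 1 to 3. All 3 momfluorothrin livers lay above all 3 control livers, and the gap between the groups was wider than the range within either. The means were 7701 ± 432 in momfluorothrin livers and 4785 ± 231 in control livers (SD, n = 3 each). The log2 difference, momfluorothrin minus control throughout, was 0.69 ± 0.07 (SE), a 1.61-fold rise with a 95% interval of 1.44 to 1.80 (adjusted p = 0.0109 in limma). By p it stood at place 7 of 15778 probe sets. Gstm1 was the 1 member of the 5 tested that passed the adjusted threshold of 0.05, and no member passed downward; at an unadjusted p under 0.05 in limma, 3 members were higher and 0 lower. Over all probe sets tested, 0.133% passed upward and 0.038% downward (0.171% in all), and at an unadjusted p under 0.05 4.92% were higher and 6.64% lower (777 and 1047 probe sets, a split that was 979 and 779 with median centring of the arrays). The Gstm1 call was lost without momfluorothrin replicate 2 (adjusted p = 0.0717), without momfluorothrin replicate 3 (adjusted p = 0.0525) and in limma without an intensity trend (adjusted p = 0.163), although the difference itself stayed between 0.64 and 0.77 under all settings run. Its unadjusted p in limma was 4.1e-05 without momfluorothrin replicate 2 and 3.4e-05 without momfluorothrin replicate 3. Without control replicate 2, where the call held, it was 3.4e-05. An adjusted p also depends on the p of all other probe sets tested.

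**Figure D1:**
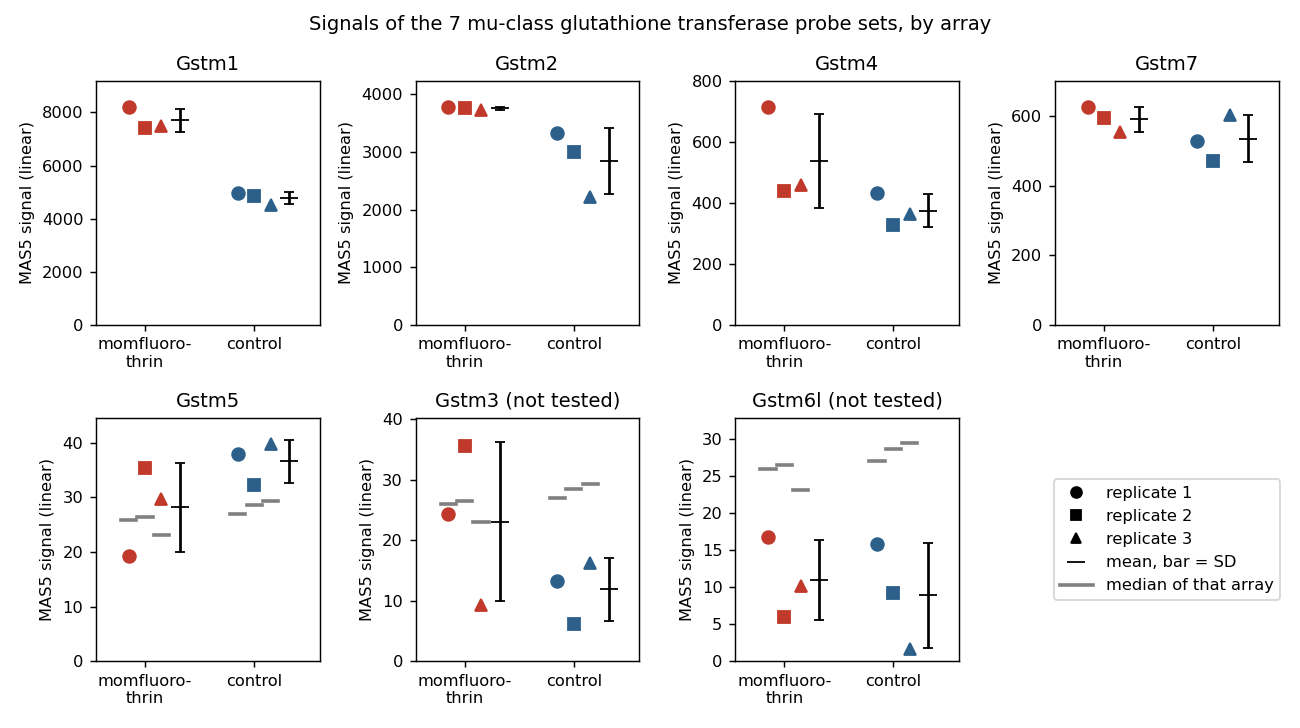
MAS5 signals (linear axis from 0) of the 7 mu-class probe sets on each array, momfluorothrin livers in red and control livers in blue, with the marker giving the replicate number, black bars the mean ± SD and grey bars the median of that array where the probe set was near or below it. Gstm1 signals were 7431 to 8200.1 in momfluorothrin livers and 4524 to 4965 in control livers, whereas Gstm5, Gstm3 and Gstm6l had overlapping groups around or below the array medians.

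Gstm2 encodes another mu-class subunit that rat liver is known to make in quantity (probe set 1370952_at). Its signals were 3778, 3758 and 3732 in momfluorothrin replicates 1 to 3, against 3328, 2991 and 2214 in control replicates 1 to 3. All momfluorothrin livers lay above all control livers, and the momfluorothrin livers lay close together while the control livers were spread. The SD was 0.618% of the mean in momfluorothrin livers and 20.1% in control livers, a difference in spread that was not tested. The means were 3756 ± 23.2 in momfluorothrin livers and 2844 ± 571 in control livers (SD, n = 3 each), with a log2 difference of 0.42 ± 0.13 (SE, 95% interval 0.12 to 0.73) that did not pass the threshold (adjusted p = 0.302 in limma). Control replicate 3 was the lowest array, and without it the log2 difference was 0.25 ± 0.08 (adjusted p = 0.364 in limma).

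Gstm4, a further mu-class gene (probe set 1375909_at), had signals of 714, 438 and 459 in momfluorothrin replicates 1 to 3, against 432, 326 and 363 in control replicates 1 to 3. The groups did not overlap, but the lowest momfluorothrin liver was only just above the highest control liver, and momfluorothrin replicate 1 stood well above all other arrays. The means were 537 ± 154 in momfluorothrin livers and 374 ± 53.9 in control livers (SD, n = 3 each), with a log2 difference of 0.50 ± 0.19 (SE, 95% interval 0.07 to 0.92, adjusted p = 0.381 in limma). Without momfluorothrin replicate 1 the log2 difference was 0.27 ± 0.14, with an interval of -0.04 to 0.59 (adjusted p = 0.489 in limma). Much of the estimate thus rested on that array.

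Counting Gstm1, 3 of the 5 tested members had all momfluorothrin livers above all control livers, and 0 had them all below. Over all probe sets tested the groups were apart in this way upward for 7.4% and downward for 10.4% (9.46% and 8.15% with median centring). Gstm1, Gstm2 and Gstm4 stood apart under median centring too.

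Gstm7 (probe set 1387023_at) had overlapping groups. Its signals were 626, 594 and 554 in momfluorothrin replicates 1 to 3, against 530.0, 471 and 605 in control replicates 1 to 3. Control replicate 3 lay above both momfluorothrin replicates 2 and 3. The means were 592 ± 36.2 in momfluorothrin livers and 535 ± 67.2 in control livers (SD, n = 3 each). The log2 difference of 0.15 ± 0.11 (SE) did not pass (adjusted p = 0.631 in limma), and its 95% interval, -0.10 to 0.40, ended below the Gstm1 estimate. The size rested on single control arrays, at 0.06 without control replicate 2 and 0.24 without control replicate 3, with adjusted p of 0.887 and 0.481 in limma.

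Gstm5, known in rodents mainly from brain and testis (probe set 1370813_at), was measured close to the array medians. Its signals were 19.3, 35.4 and 29.8 in momfluorothrin replicates 1 to 3, against 37.9, 32.2 and 39.8 in control replicates 1 to 3. It was the 1 tested member with a lower mean in momfluorothrin livers, but the groups overlapped, and momfluorothrin replicate 1 was below its array median. The means were 28.2 ± 8.17 in momfluorothrin livers and 36.7 ± 3.95 in control livers (SD, n = 3 each), with a log2 difference of -0.42 ± 0.28 (SE, 95% interval -1.04 to 0.21, adjusted p = 0.590 in limma). Without momfluorothrin replicate 1 the log2 difference was -0.17 ± 0.25 (SE, adjusted p = 0.830 in limma). The array medians were also lower in the momfluorothrin group, and with median centring the Gstm5 difference was -0.38. It was -0.28 with quantile normalization and -0.27 with a pseudocount of 16.

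Gstm3 and Gstm6l were too dim to be tested. For Gstm3 (probe set 1369921_at) the signals were 24.3, 35.5 and 9.31 in momfluorothrin replicates 1 to 3, against 13.3, 6.16 and 16.2 in control replicates 1 to 3. Momfluorothrin replicate 2 was the 1 array on which it exceeded the median. For Gstm6l (probe set 1394730_at) the signals were 16.7, 5.98 and 10.1 in momfluorothrin replicates 1 to 3, against 15.7, 9.23 and 1.68 in control replicates 1 to 3, all below the median of their array. Both had overlapping groups, and no fold is given at these signals. With no filter on low signals, both missed the threshold (adjusted p = 0.678 for Gstm3 and 0.830 for Gstm6l in limma).

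**Figure D2:**
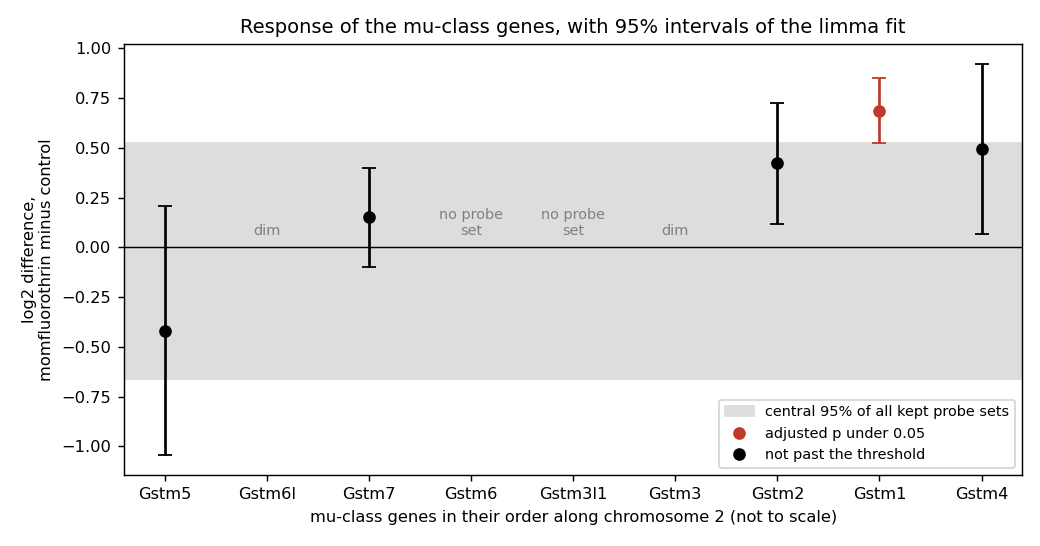
Log2 differences, momfluorothrin minus control, with 95% intervals from limma, for the mu-class genes in their order along chromosome 2; the grey band holds the central 95% of all 15778 probe sets tested (-0.66 to 0.52). Gstm2, Gstm1 and Gstm4 stand at one end of the cluster with estimates of 0.42, 0.69 and 0.50, of which 0.69 passed the threshold, and Gstm5 stands at the other end at -0.42.

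In the order of the genes along the chromosome, the 3 members whose groups did not overlap were neighbours. Gstm2, Gstm1 and Gstm4 follow each other, with 1 predicted locus listed in that stretch. Gstm7 and Gstm5 lie beyond the dim Gstm3 and beyond Gstm3l1 and Gstm6, which had no probe set. The dim Gstm6l lies between Gstm7 and Gstm5. With 5 tested members and 1 call, the order is a description and no test of position was made.

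Whether members differed from each other in response was tested on the ratio of both signals within each array. Of the 10 pairs among the 5 tested members, 5 had ratios that did not overlap between the groups, and each of these had an exact 2-sided permutation p of 0.1, the smallest that 3 arrays against 3 can give, so no pair could pass 0.05 (adjusted p = 0.2 over the 10 pairs). The pairs share members and are not independent. No share over pairs of other probe sets is given here, so whether this count is unusual was not tested. In 4 of the 5 pairs the lower partner was Gstm5, the dimmest tested member, whose own difference shrank to -0.17 without momfluorothrin replicate 1. Leaving out an array cannot make ratios that are apart overlap, so that refit does not test how firmly these 4 pairs stood apart. Under quantile normalization 3 of them were apart. The log2 difference of Gstm1 exceeded that of Gstm5 by 1.10, with SDs of the within-array ratio of 0.53 in momfluorothrin livers and 0.20 in control livers. The pair of Gstm1 and Gstm7 was the remaining one, with a difference of 0.54 and SDs of 0.06 in momfluorothrin livers and 0.24 in control livers. Gstm1 against Gstm2 differed by 0.26 with overlapping ratios (exact permutation p = 0.3, adjusted p = 0.429), and Gstm1 against Gstm4 by 0.19 (exact permutation p = 0.4, adjusted p = 0.5). A p of this size does not show that Gstm1, Gstm2 and Gstm4 responded alike.

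**Figure D3:**
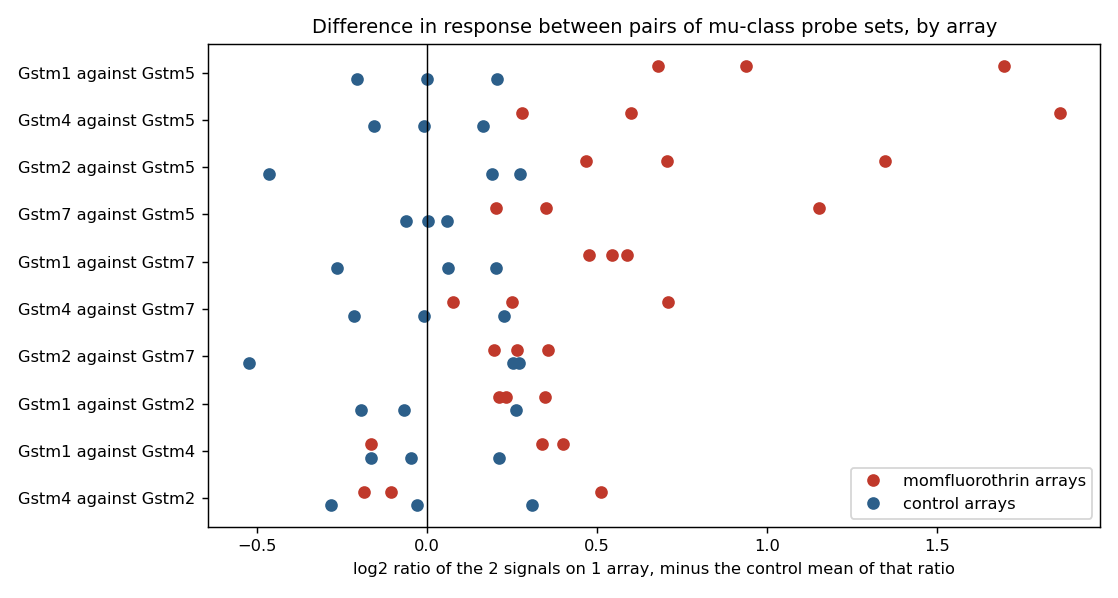
Within-array log2 ratio of 2 mu-class signals minus its control mean, for the 10 pairs of tested members, 1 point per array, momfluorothrin arrays in red and control arrays in blue. The colours do not overlap for the 4 pairs with Gstm5 and for Gstm1 against Gstm7, and they overlap for the other 5 pairs.

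The genes whose profiles over the 6 arrays lay closest to that of Gstm1 were found by the root mean square difference of log2 signals, each centred on its own mean, among 9143 other named genes. The closest 5 were Cryzl2 (0.0745), the alpha-class transferase Gsta4 (0.0755), the ADP-ribose hydrolase Macrod1 (0.0985), the membrane protein Tmem97 (0.0994) and the biliverdin reductase Blvra (0.1). The other tested mu-class members lay at 0.194 for Gstm2, 0.231 for Gstm4, 0.303 for Gstm7 and 0.642 for Gstm5. The 5 genes were picked as the closest of 9143, so a fixed member lying farther is what that choice gives. Whether the mu-class members lay unusually near or far among all genes was not tested. Of the closest genes, Gsta4 and Macrod1 passed the threshold, Gsta4 at a log2 difference of 0.58 ± 0.07 (SE, adjusted p = 0.0206) and Macrod1 at 0.76 ± 0.11 (SE, adjusted p = 0.0451, both in limma). Gsta4 signals were 1966, 1951 and 1985 in momfluorothrin replicates 1 to 3, against 1386, 1293 and 1273 in control replicates 1 to 3. This likeness reflects the size of the group difference and the spread of single arrays alike, and says nothing of shared control. Genes picked for likeness to a called probe set on the same arrays are apt to pass. The calls of Gsta4 and Macrod1 are thus no support here.

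Around the mu class, 32 of 41 other genes listed for glutathione conjugation and the mercapturate pathway were tested; 4 rose and 0 fell, and at an unadjusted p under 0.05 in limma 12 were higher and 0 lower. Over all 9200 genes tested 0.196% passed upward and 0.0217% downward, and 6.05% were higher and 6.18% lower at an unadjusted p under 0.05. The export pump Abcc3, 1 of the 4, passed the filter on low signals through the momfluorothrin livers alone, and without it 3 of 31 genes rose. The median log2 difference was 0.15 for the list and -0.01 for all genes. Among 14 tested transferases of other classes, 2 rose, and the median was 0.27. These were Gstt3 of the theta class, at 4119, 4546 and 3253 in momfluorothrin livers against 1817, 1760 and 1338 in control livers, and Gsta4. The remaining transferases ranged from -0.19 for Hpgds, which makes prostaglandin D, to 2.81 for the alpha-class Gsta3, neither past the threshold. Gsta3 signals were 480.0, 684 and 787 in momfluorothrin livers against 136, 143 and 38.6 in control livers (adjusted p = 0.0636 in limma), and Gsta3 is named after its values were seen. In 9 of these 14 transferases all momfluorothrin livers lay above all control livers, and in 1, Gstz1, all lay below, where 9.04% and 9.23% of all genes did so.

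Of the 4 genes of glutathione synthesis and recycling, 0 passed in either direction, with 1 higher at an unadjusted p under 0.05 in limma. Their log2 differences ran from -0.19 for glutathione synthetase, Gss, to 0.39 for Gclm, the modifier subunit of the rate-limiting enzyme. Of 11 tested genes of glutathione breakdown and the mercapturate steps, 1 rose, the gamma-glutamyltransferase Ggt1, at 144, 233 and 165 in momfluorothrin livers against 33.5, 52.2 and 33.4 in control livers (adjusted p = 0.0109 in limma). In control replicates 1 and 3 Ggt1 lay only a little above the array medians of 27.0 and 29.4, so the size of its difference leans on low signals. Among the export pumps, Abcc3 had signals of 114, 122 and 100.5 in momfluorothrin livers against 2.87, 3.05 and 2.99 in control livers, the last all below the array medians. Since it was tested only because it was bright in 1 group, its call is not used as support and no fold is given. Abcc2 and Abcc4, the other pumps tested, had log2 differences of 0.07 and 0.02. None of the 4 calls held without momfluorothrin replicate 2, where 0 genes of the list passed, and 2 genes passed without momfluorothrin replicate 1 and without momfluorothrin replicate 3. Abcc3 was not set aside in these counts.

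**Figure D4:**
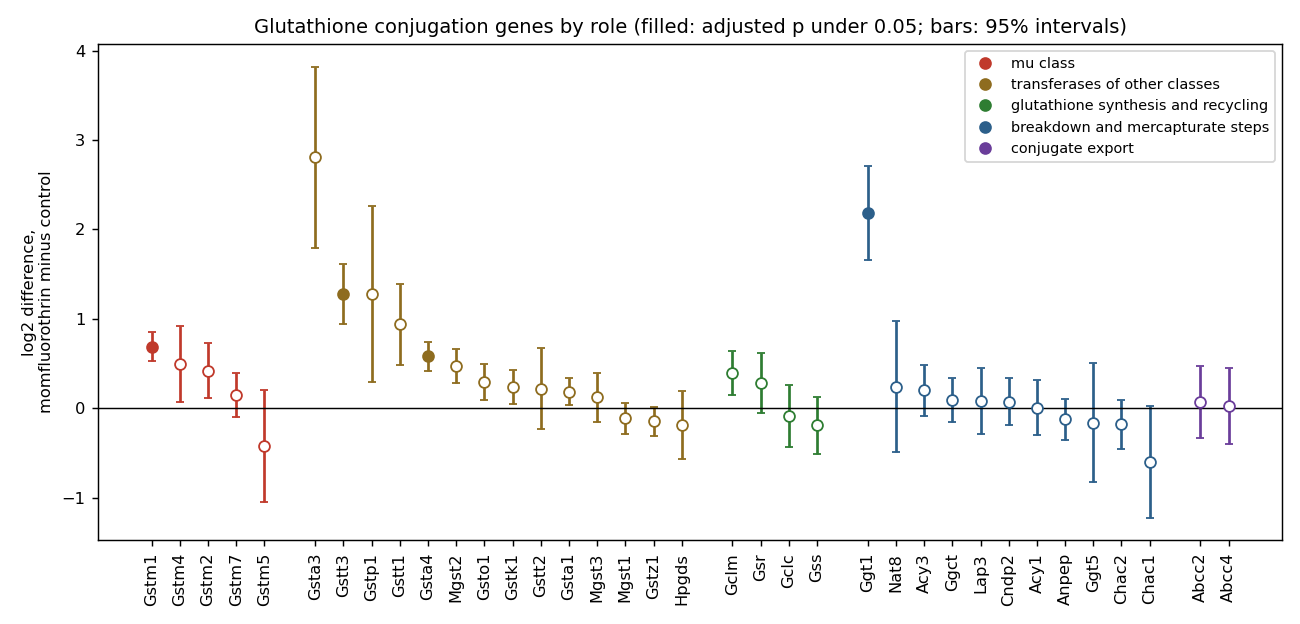
Log2 differences, momfluorothrin minus control, with 95% intervals from limma, for the 5 tested mu-class members and the other tested glutathione genes by role, filled where the adjusted p was under 0.05; Abcc3 is left out because its control signals were below the array medians. Filled points are Gstm1 (0.69), Gstt3 (1.28), Gsta4 (0.58) and Ggt1 (2.19), and the open points include the other 4 mu-class members.

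The lists of genes known to respond to the inducers of the mu class were mixed. Of 22 tested NRF2 targets, 2 rose and 0 fell, while at an unadjusted p under 0.05 in limma 7 were higher and 2 lower, with a median log2 difference of 0.19. The shares over all genes tested, 0.196% upward and 0.0217% downward at the adjusted threshold and 6.05% and 6.18% unadjusted, apply to this list and the next, beside a median of -0.01. The 2 were Akr7a3, an aldo-keto reductase, at 1.94 ± 0.15, and Ephx1, the microsomal epoxide hydrolase, at 1.06 ± 0.11 (SE). Both are also in the list of CAR and PXR targets. The other 20 genes of the NRF2 list did not pass, with log2 differences from -0.82 for Osgin1 to 0.77 for Me1, the malic enzyme. Besides targets, the list holds Nfe2l2, which encodes NRF2 itself, and Keap1, its repressor. Nfe2l2, at a log2 difference of -0.45, was 1 of the 2 lower genes, so that count is not of targets alone. Without momfluorothrin replicate 2 or 3, 1 NRF2 target passed. Of 22 tested CAR and PXR targets, 6 rose and 0 fell, while at an unadjusted p under 0.05 in limma 7 were higher and 2 lower, with a median of 0.09. The list was fixed at 31 genes. Cyp2b1, Cyp2b2, Aldh1a7, Ces2a, Ugt1a1, Ugt1a6 and Abcb1b had no probe set with that symbol alone, and Cyp2b12 and Sult2a1 did not pass the filter. Besides targets, the list holds the receptor genes Nr1i3 (CAR) and Nr1i2 (PXR). Nr1i3, at a log2 difference of 0.32, was 1 of the 7 higher genes. Abcc3 is in this list too, and without it 5 of 21 rose. Of these, the smallest p belonged to the carboxylesterase Ces2c at 1.97 ± 0.11, Akr7a3, and the glucuronosyltransferase Ugt2b1 at 1.64 ± 0.13 (SE). The other 16 genes of the list did not pass, with log2 differences from -0.23 for Cyp3a18 to 0.86 for Gadd45b. The 2 lower genes were the cytochromes Cyp2c7 at -0.19 and Cyp3a2 at -0.16. Without momfluorothrin replicate 2, 3 genes of the list passed, Abcc3 not among them. In limma without an intensity trend 0 NRF2 targets and 2 CAR and PXR targets passed. Abcc3 was not set aside in the latter count.

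Markers of liver zones and cell types gave no call in limma. In 10 tested pericentral markers, which mark the zone where many drug-metabolising enzymes are highest, the median log2 difference was -0.18, with 0 higher and 3 lower at an unadjusted p under 0.05 in limma, against 6.05% higher, 6.18% lower and a median of -0.01 over all genes tested. Their summed signal was 23874 to 26806 in momfluorothrin livers and 26010 to 29505 in control livers. In 12 periportal markers the median was -0.11 (1 higher, 3 lower), with sums of 46665 to 49358 in momfluorothrin livers and 50101 to 56077 in control livers, and in 9 hepatocyte markers it was -0.15 (0 higher, 3 lower). Cps1 and Alb are in both the periportal and the hepatocyte list, and Cps1 is 1 of the 3 lower in each, so these lists are not independent. The part of cell makeup in the mu-class differences was not tested, and in whole liver fewer cells of a type and less RNA per cell cannot be told apart.

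Among other cell types, medians were 0.00 for 7 Kupffer cell markers (sums of 1701 to 1949 in momfluorothrin livers and 1688 to 2068 in control livers), -0.21 for 7 stellate cell markers (1960 to 2104 in momfluorothrin livers and 1821 to 2307 in control livers) and 0.00 for 6 endothelial markers (2531 to 2740 in momfluorothrin livers and 2267 to 2606 in control livers). At an unadjusted p under 0.05 in limma, 1 endothelial marker was higher (Lyve1, 0.31) and 1 lower (Eng, -0.45). Of the Kupffer cell markers 0 were higher and 1 lower (Clec4f, -0.33), and of the stellate cell markers 0 in either direction. Over all genes tested the shares were 6.05% and 6.18%. Of the bile duct markers Krt19, Krt7, Spp1 and Cftr did not pass the filter, and the 2 tested, Epcam and Onecut1, had log2 differences of 0.63 and -0.85. Medians were 0.02 for 2 markers of lymphocytes and neutrophils and -0.01 for 3 of red blood cells, and Cfd, the 1 tested of pancreas and fat, stood at -0.36. None of the 6 markers fixed for brain and testis, Gfap, Snap25, Syt1, Prm1, Prm2 and Tnp1, passed the filter on low signals.

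**Figure D5:**
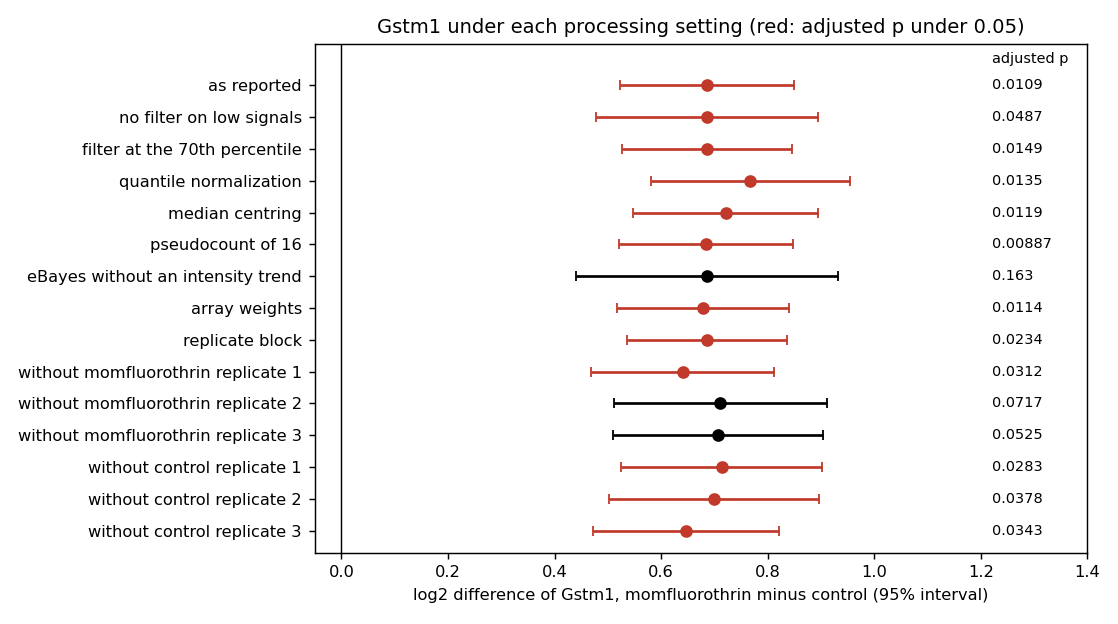
Log2 difference of Gstm1, momfluorothrin minus control, with its 95% interval under each processing setting and its adjusted p at the right, red where that was under 0.05. The estimates run from 0.64 to 0.77, and the call is lost in limma without an intensity trend (0.163) and without momfluorothrin replicate 2 (0.0717) or 3 (0.0525).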

How the data were processed

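The authors deposited 1 table of linear signal intensities with 1 column per animal, which the submitters' processing notes credit to MAS5, with the version and settings not given in the sources used here. All 6 arrays had a mean of about 100.0 after 2% of the probe sets were trimmed at each end, so no further scaling was applied. The number of arrays, and not a depth, limits the precision.

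Of 31099 probe sets, 57 array controls were left out. The 15778 probe sets above the array median on at least 3 arrays were put on the log2 scale without a pseudocount and fitted with limma 3.58.1 in R 4.3.3 (lmFit, eBayes with an intensity trend). Tests were 2-sided, p-values were adjusted over all of them by Benjamini-Hochberg, and the threshold was 0.05. Genes were named from the platform annotation, in which 20826 probe sets had 1 symbol, 436 several and 9780 none; 20758 of those with 1 symbol matched RefSeq (GRCr8, used for names, gene order and promoters). A gene of the lists was represented by its tested probe set with the highest mean signal. Promoter windows were searched for exact matches.

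The rule for naming took every Gstm probe set, up to 4 called members of each list by p or else the 2 with the smallest p, and the 5 genes closest to Gstm1. The members and lists were chosen with earlier results of these data known. The labels call the replicates separate animals; replicate numbers were not used as pairs. Alternatives changed the filter, scaling, pseudocount (16), variance model, array weights, replicate block and the probe set of a gene, and left out each array. The labels give no hybridisation batch or date.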

Additional observations from a re-analysis of the deposited data

How the results depend on the processing

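Over the 5 tested members and the alternatives, 69 refitted differences held 0 changes of direction. Gstm1 alone had a call to lose and lost it under 3 alternatives. It kept the call in 7 of 8 alternatives with all arrays and in 4 of 6 with 1 array left out. Changing the filter, the variance model or the replicate block leaves a difference as it is. Under these settings the call could change, but the direction could not. In limma without an intensity trend Gstm1 kept its log2 difference of 0.69 with an adjusted p of 0.163, and the counts of calls were 0 Gstm probe sets, 1 gene of glutathione conjugation, 0 NRF2 targets, 2 CAR and PXR targets and 3 of all probe sets. Here and with arrays left out, counts of the glutathione list and of the CAR and PXR list include Abcc3 wherever it passed. These counts are thus a description of the calls and not support for either list. With the replicate block Gstm1 stayed at 0.69 (adjusted p = 0.0234), 1 NRF2 target passed, and 15 probe sets passed in all, against 27 as reported; it moved no other count by over 1.5 times. Same-numbered animals deviated from their group means with correlations across probe sets of -0.10, 0.10 and -0.06, so the numbers were not treated as pairs. Leaving out each array in turn gave 0 to 1 Gstm probe sets, 0 to 5 glutathione genes, 1 to 2 NRF2 targets, 3 to 6 CAR and PXR targets and 5 to 28 of all probe sets, with the Gstm1 log2 difference at 0.64 to 0.71. The fewest for the glutathione list (0), the CAR and PXR list (3) and all probe sets (5) came without momfluorothrin replicate 2; without momfluorothrin replicate 3 the glutathione count was 2 and that of all probe sets 8, and without momfluorothrin replicate 1 they were 2 and 16. The cause of these losses was not tested. Pairs of members with ratios apart numbered 4 of 10 with quantile normalization and 5 with the pseudocount. Median centring leaves a within-array ratio unchanged, and leaving out an array cannot make ratios that are apart overlap. Those settings could thus not lower the count. Gstm5 was not tested under the filter at the 70th percentile. Setting aside genes above the array median in 1 group alone, an alternative chosen after seeing the data, gave 3 glutathione genes, 2 NRF2 targets and 5 CAR and PXR targets. Low signals limit Gstm5, Gstm3 and Gstm6l, and Ggt1 was low in control livers.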
